A study of Arabidopsis thaliana with 12 samples.

Results

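The LNK genes (night light-inducible and clock-regulated) were followed in seedlings of Arabidopsis thaliana, as the 4 probe sets that the array files pair with the loci of LNK1 (AT5G64170), LNK2 (AT3G54500), LNK3 (AT3G12320) and LNK4 (AT5G06980). Each gene had 1 probe set with a single locus (247323_at, 251869_at, 256266_at and 250665_at, in that order), and 0 probe sets with several loci were left out. They are 4 of 22746 probe sets other than array controls. Whole seedlings of the wild type Columbia (Col) were compared with CCA1-34, a line that overexpresses CCA1 and has lost its circadian rhythm. Both lines were entrained for 4 days with a light phase of 8 h and a night of 16 h. They then received light for 160 min alternating with darkness for 320 min, for 3 days by the labels. Harvest was 120 min into a dark period. The early harvest came 280 min from dawn and the late one 1240 min from dawn, and each of the 4 groups has 3 arrays.

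Replicates 1, 2 and 3 of every group were seedlings aged 5, 6 and 7 days, so that age and day of sampling are the same variable. Time spent under the light pulses cannot be told apart from them. Dishes held about 100 seedlings on medium with sucrose, so each array averages many plants and all their organs. The labels give neither the promoter behind CCA1 in CCA1-34 nor a further overexpressing line. By the series' design text, Col seedlings elongated in the early dark period and had stopped by the late one, and CCA1-34 seedlings elongated in both.

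LNK proteins lack a DNA-binding domain of their own. LNK1 and LNK2 bind the Myb factors RVE4 and RVE8 and act as coactivators at clock promoters such as those of PRR5 and TOC1, and plants without both run a slow clock and have long hypocotyls. LNK3 and LNK4 are shorter relatives that are less studied. LNK transcripts peak in the morning and are induced by light given at night, which gave the family its name.

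The deposited values are on the log2 scale, with array medians of 4.01 to 4.12, and every difference below is a difference of log2 values. CCA1 lay between 8.46 and 10.2 in the 6 CCA1-34 arrays and between 2.47 and 6.37 in the 6 Col arrays, so all labels of the line fitted its overexpressed gene. All 5 measured shoot markers were above the array median on every array, as were 7 to 10 of the 11 measured root markers. The mean of the root markers ranged from 5.8 to 6.22 in Col early, 5.44 to 6.48 in Col late, 5.7 to 6.2 in CCA1-34 early and 5.56 to 6.1 in CCA1-34 late. The number of arrays limits the precision, and a lower transcript level cannot be told apart from fewer expressing cells.

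Among the early arrays, 1 of each line stood apart in genes that respond to light. In Col early replicate 3, 9 of 11 light-induced genes exceeded their mean in replicates 1 and 2, with an average difference of 1.46, and 1 of 8 dark-induced genes was higher, with a mean difference of -1.09. In CCA1-34 early replicate 2, 11 of 11 light-induced genes were higher, by 2.06 on average, and 1 of 8 dark-induced genes was higher, with a mean difference of -1.42. Those arrays held the highest LNK1, LNK3 and LNK4 values of their groups, and LNK2 was highest of its group in the second of them alone. The labels state that seedlings were collected with infrared goggles to keep light off them, and whether these 2 samples received light was not tested. The main differences of the LNK genes are therefore given with all arrays and without this pair. In Col late, dark-induced genes also varied, with mean differences of -1.10 in replicate 1 (2 of 8 higher) and 1.23 in replicate 3 (7 of 8 higher). Without either of those arrays, LNK4 was 2.42 or 2.86 higher early than late in Col, LNK1 2.41 or 2.38, LNK3 2.28 or 2.13 and LNK2 1.30 or 1.74.

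LNK1 was measured in Col early at 4.48, 3.32 and 6.62 in replicates 1, 2 and 3, and in Col late at 2.33, 2.51 and 2.29. In CCA1-34 early it was measured at 4.89, 6.98 and 4.06, and in CCA1-34 late at 4.02, 4.27 and 4.41. All Col late arrays lay below every other array, and both early groups were spread far wider than the late ones. Its early means were 4.81 ± 1.68 (Col) and 5.31 ± 1.51 (CCA1-34), and its late means 2.38 ± 0.12 and 4.23 ± 0.20 (SD, n = 3).

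LNK2, the other well-studied coactivator, was measured in Col early at 4.88, 6.38 and 5.04 and in Col late at 3.70, 3.68 and 4.59. In CCA1-34 early it was measured at 4.81, 6.22 and 4.73, and in CCA1-34 late at 4.32, 4.76 and 4.32. Its late groups overlapped, because Col late replicate 3 lay within the range of CCA1-34 late. In both lines the 6-day-old early seedlings had the highest LNK2 value, although in Col this was not the array with raised light-induced genes.

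LNK3 was measured in Col early at 3.59, 4.39 and 5.36 and in Col late at 2.25, 2.38 and 1.95. In CCA1-34 early it was measured at 4.42, 5.87 and 3.83, and in CCA1-34 late at 3.68, 3.56 and 3.97. As for LNK1, all Col late arrays lay below all 9 others. The LNK3 mean was 4.45 ± 0.88 in Col and 4.71 ± 1.05 in CCA1-34 at the early time, and 3.74 ± 0.21 in CCA1-34 late (SD, n = 3).

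LNK4 was measured in Col early at 4.78, 5.24 and 6.10 and in Col late at 2.64, 2.38 and 3.52. In CCA1-34 early it was measured at 5.21, 6.79 and 5.37, and in CCA1-34 late at 4.54, 5.13 and 5.75. The Col late arrays again lay below all others, and the remaining groups overlapped one another. For LNK1, LNK3 and LNK4 the order of the group means was CCA1-34 early, Col early, CCA1-34 late and Col late from highest to lowest. In that order the step from CCA1-34 late to Col late was the one without overlapping arrays. For LNK2 the order was Col early, CCA1-34 early, CCA1-34 late and Col late, and all neighbours in it overlapped.

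**Figure D1:**
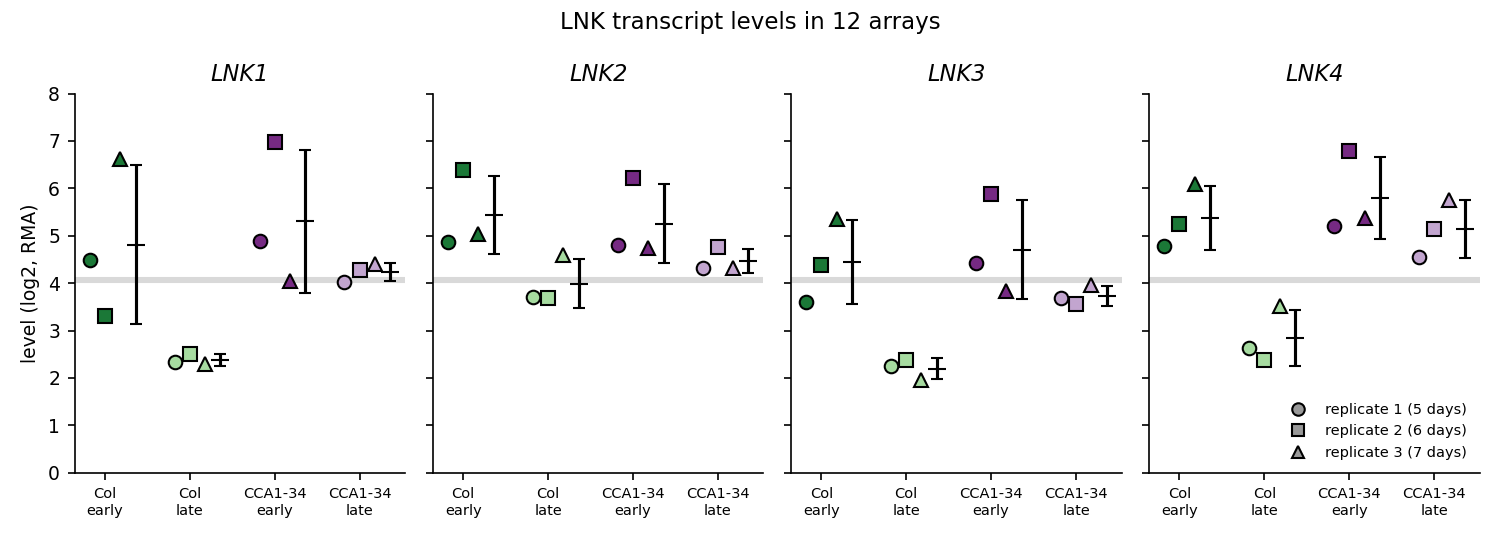
Levels of LNK1 to LNK4 (log2) on every array, by group; marker shapes give the replicate (seedling age), black dashes with bars the mean ± SD (n = 3), and the grey band the range of array medians. The Col late arrays of LNK1, LNK3 and LNK4 lie below the band and below every other array of the same gene.

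In Col late, LNK1, LNK3 and LNK4 were below the array median on 3 of 3 arrays and the files hold no detection call, so a difference against that group may be a lower bound. LNK3 in CCA1-34 late was also below the median on every array, whereas LNK4 in CCA1-34 late was above it on every array.

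The comparison of Col at the early and the late time asks what differs between a dark period with growth and one without, and in wild-type seedlings elongation and the hour cannot be told apart. The early level exceeded the late level for all LNK genes on each of the 3 days. For LNK4 the differences by day were 2.14, 2.86 and 2.58, and for LNK3 they were 1.34, 2.01 and 3.41. LNK1 differed by 2.15, 0.81 and 4.33, the widest range of the family, and LNK2 by 1.18, 2.70 and 0.45. LNK1 and LNK3 differed most at 7 days, and LNK2 and LNK4 at 6 days.

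As differences of group means, LNK4 was 2.53 higher early (5.77-fold, 95% interval 1.42 to 3.63), LNK1 2.43 higher (0.63 to 4.22), LNK3 2.25 higher (1.13 to 3.37) and LNK2 1.44 higher (0.40 to 2.49). The arrays of the groups did not overlap for 4 of 4 members, against 5.14% of all probe sets in this direction. None of the LNK genes passed limma's test adjusted over all probe sets, with adjusted p of 0.382 for LNK4, 0.544 for LNK3 and 0.900 for LNK1 and LNK2. The share of probe sets that passed was 0.0044%. At an unadjusted p under 0.05 all 4 were higher early, against 2.66% of all probe sets.

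The early level in Col also exceeded the late one without the pair of arrays that stood apart in light-induced genes. The differences were then 1.52 for LNK1, 1.64 for LNK2, 1.80 for LNK3 and 2.16 for LNK4, and the lowest limma adjusted p was 0.0779, for LNK3. LNK1 thus moved most, from 2.43, and LNK2 moved up.

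In CCA1-34, LNK1 was 1.07 higher early (95% interval -0.72 to 2.87), LNK3 0.97, LNK2 0.79 and LNK4 0.65, and limma's adjusted p was 1.00 for each, with 0% of probe sets passing. Arrays of the groups overlapped for every member, and 3.94% of all probe sets were higher early without overlap. By day, LNK1 differed by 0.86, 2.71 and -0.35, LNK3 by 0.74, 2.31 and -0.13, and LNK4 by 0.67, 1.66 and -0.38, so that the 7-day-old seedlings went the other way. LNK2 was higher early on all 3 days, by 0.49, 1.45 and 0.42.

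Most of the excess in CCA1-34 lay in early replicate 2, the array in which all 11 light-induced genes were raised. Without it and Col early replicate 3, the LNK1 difference in CCA1-34 was 0.24 (95% interval -0.53 to 1.01), LNK2's 0.30, LNK3's 0.39 and LNK4's 0.15. The part of the light-regulated genes in these values was not tested.

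**Figure D2:**
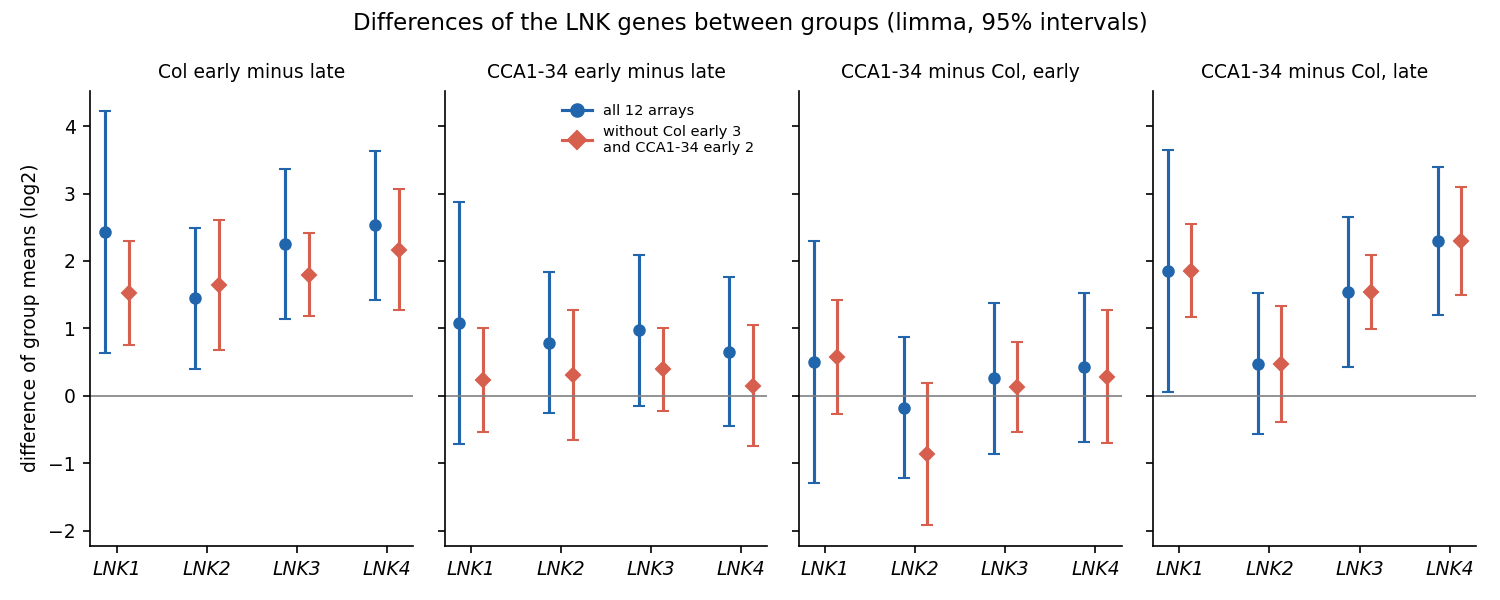
Differences of group means (log2) for each LNK gene in 4 comparisons, with all 12 arrays (circles) and without Col early replicate 3 and CCA1-34 early replicate 2 (diamonds); bars are 95% intervals from limma. Leaving out these arrays brings every early-minus-late difference in CCA1-34 below 0.40 and leaves those in Col at 1.52 or more.

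The interaction, the early-minus-late difference in Col minus that in CCA1-34, was 1.88 for LNK4 (SE 0.71, 95% interval 0.31 to 3.44). It was 1.35 for LNK1, 1.28 for LNK3 and 0.66 for LNK2, whose 95% intervals included 0. At an unadjusted p under 0.05, 1 of 4 members was above 0, against 1.12% of all probe sets. Limma's adjusted p was 1.00 for each, and 0% of probe sets passed. Without the pair of arrays the interaction was 2.01 for LNK4 (95% interval 0.74 to 3.28) and 1.41 for LNK3 (0.54 to 2.27). It was then 1.34 for LNK2 (-0.03 to 2.70) and 1.28 for LNK1 (0.19 to 2.37). Limma's adjusted p in that fit was 0.9997 for each. The arrays of the pair moved the interaction in opposite directions for LNK1, LNK3 and LNK4, and in the same direction for LNK2. Without Col early replicate 3 alone it was 0.44 for LNK1, 0.83 for LNK3, 0.85 for LNK2 and 1.51 for LNK4. Without CCA1-34 early replicate 2 alone it was 2.19, 1.86, 1.14 and 2.38 in the same order of genes. LNK1 also moved to 0.73 without CCA1-34 early replicate 3, and to 2.097 without Col early replicate 2. LNK3 gave 0.84 without CCA1-34 early replicate 3. LNK2 ranged from 0.18, without Col early replicate 2, to 1.14.

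Averaged over both lines, early levels exceeded late levels by 1.75 for LNK1, 1.61 for LNK3, 1.59 for LNK4 and 1.12 for LNK2. Without the pair of early arrays these differences were 0.88, 1.09, 1.16 and 0.97, so that LNK1 went from the largest to the smallest. In an exact permutation test of times within lines (400 assignments, two-sided, n = 6 against 6) p was 0.015 for LNK1, 0.01 for LNK2, 0.01 for LNK3 and 0.02 for LNK4. The smallest p these assignments allow is 0.005, and 3.1% of all probe sets were higher early by the same test at 0.05. These are single tests of 4 genes, and an adjustment over all probe sets could not be passed with so few assignments. When arrays were paired by day, sign changes over 6 pairs gave an exact p of 0.0312 for LNK2 and 0.0625 for the other 3. For LNK1 the exact p was 0.05 to 0.06 without any one of the Col late arrays or CCA1-34 late replicate 1, and without the pair of early arrays it was 0.03 for LNK1, 0.03 for LNK2, 0.02 for LNK3 and 0.07 for LNK4. Limma's test of the same averages had an adjusted p of 0.865 for each, where 0% of probe sets passed.

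The comparison of the lines asks what the overexpressed CCA1 goes with at each time. At the early time, CCA1-34 minus Col was 0.50 for LNK1 (95% interval -1.29 to 2.30), 0.42 for LNK4 (-0.68 to 1.52), 0.26 for LNK3 (-0.86 to 1.38) and -0.18 for LNK2 (-1.23 to 0.86). The intervals are wide, and that of LNK1 includes a difference of 1 unit in either direction. Without the pair of early arrays the signs stayed, with 0.57 for LNK1, 0.28 for LNK4, 0.13 for LNK3 and -0.86 for LNK2. All of these intervals included 0. The signs for LNK1, LNK3 and LNK4 turned without CCA1-34 early replicate 2 alone, with -0.34, -0.32 and -0.08. LNK3 also turned without Col early replicate 1, with -0.17. Without Col early replicate 2, LNK1 turned to -0.24 and LNK2 to 0.30, and LNK2 also turned without CCA1-34 early replicate 1 (0.04) or 3 (0.08). None passed limma (lowest adjusted p 1.00), where 0.0044% of probe sets did.

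At the late time LNK4 was 2.30 higher in CCA1-34 (4.91-fold, SE 0.50, 95% interval 1.19 to 3.40). LNK1 was 1.85 higher (0.06 to 3.65) and LNK3 1.54 higher (0.42 to 2.66), whereas LNK2 differed by 0.48 (-0.57 to 1.52). With the replicate block in the fit, the interval of LNK1 was -0.14 to 3.85 and included 0. The pair of early arrays enters this comparison only through the shared estimate of the spread. With that pair left out, the intervals were 1.49 to 3.10 for LNK4, 1.17 to 2.54 for LNK1 and 0.99 to 2.09 for LNK3. That of LNK2 was -0.39 to 1.34. Arrays did not overlap for 3 of 4 members, LNK2 being the exception, against 5.45% of all probe sets in this direction. By day the excess in CCA1-34 was 1.90, 2.76 and 2.23 for LNK4, 1.69, 1.76 and 2.12 for LNK1, and 1.43, 1.18 and 2.02 for LNK3. LNK2 was higher in CCA1-34 on the first 2 days, by 0.62 and 1.08, and differed by -0.27 on the last.

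None passed limma over all probe sets at the late time, with an adjusted p of 0.390 for LNK4 and 1.00 for the others, where 0.00879% of probe sets passed. Without the pair of early arrays none passed either, with a limma adjusted p of 0.0791 for LNK4, 0.0845 for LNK3 and 0.0980 for LNK1. The LNK genes had a smaller SD in the late groups than in the early ones, though for LNK4 in Col it was 0.60 against 0.67. With the late groups alone in the fit, LNK1 (adjusted p = 0.0122) and LNK3 (0.0425) passed in limma, and LNK4 gave 0.211 and LNK2 1.00, where 0.0967% of all probe sets passed in that fit. In Col late, LNK1 and LNK3 were below the array median on 3 of 3 arrays, with SDs of 0.12 and 0.22. LNK3 was also below it on every CCA1-34 late array. Whether low values narrowed that spread was not tested. The late comparison of the lines and that of Col over time share the Col late arrays, so their values are not independent.

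Over both times, LNK4 was 1.36 higher in CCA1-34 (exact permutation test of lines within times, 400 assignments, two-sided, n = 6 against 6, p = 0.03). LNK1 was 1.18 higher (p = 0.14), LNK3 0.90 (p = 0.075) and LNK2 0.15 (p = 0.64), against 2.71% of probe sets that were higher in CCA1-34 by this exact permutation test at 0.05. Paired by day, the exact p for LNK4 was 0.0938. It also reached 0.05 or more without any one of Col early replicate 1, Col late replicate 2, CCA1-34 early replicate 2 or CCA1-34 late replicate 3, with 0.05 to 0.065. Without Col early replicate 3 it was LNK1 (1.63, exact p = 0.02) and LNK3 (1.13, 0.025) that passed besides LNK4, and without CCA1-34 early replicate 3 LNK3 passed (1.12, 0.02). With the pair of early arrays left out, the differences were 1.29 for LNK4, 1.21 for LNK1, 0.84 for LNK3 and -0.19 for LNK2.

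Whether members differed from each other was tested on their differences within arrays, a choice made after the values were seen. Of the 12 tests (6 pairs of genes, lines and times), 1 had an exact p under 0.05: the line difference of LNK4 exceeded that of LNK2 by 1.21 (exact permutation test, p = 0.02). Without the pair of early arrays the line difference of LNK2 was smaller than those of LNK1 by 1.41 (exact p = 0.0333), of LNK3 by 1.03 (0.0167) and of LNK4 by 1.48 (0.0167). For the time of day 0 of 6 pairs had an exact p under 0.05, with values between 0.24 and 0.93. The sizes of those 6 differences lay between 0.02 and 0.64.

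The LNK levels were also set beside the mean of the 11 light-induced genes. That mean ranged from 4.56 to 6.06 in Col early, 4.09 to 4.65 in Col late, 4.22 to 6.64 in CCA1-34 early and 4.23 to 4.59 in CCA1-34 late. At the late time 4 of the 11 were above 0 in CCA1-34 minus Col, with a median of -0.11 against -0.01 for all probe sets. BBX24 among the 4 was 2.45 higher (limma adjusted p = 0.424). In the arrays at 6.06 and 6.64, LNK1 exceeded the mean of the other arrays of its group by 2.73 and 2.51. LNK3 exceeded it by 1.37 and 1.74 and LNK4 by 1.09 and 1.50, whereas LNK2 differed by -0.59 in Col and by 1.45 in CCA1-34.

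**Figure D3:**
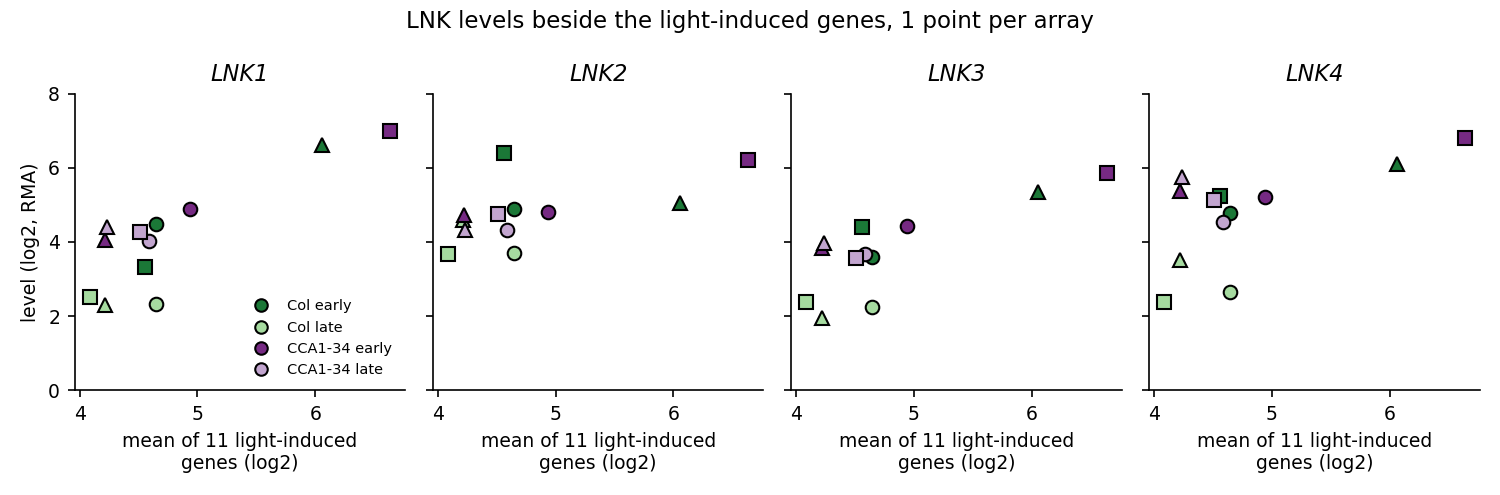
Level of each LNK gene (log2) against the mean of the 11 light-induced genes (log2), 1 point per array, with colour for the group and shape for the replicate as in the plot of levels. The pair of arrays at 6.06 and 6.64 on the horizontal axis carries the highest LNK1, LNK3 and LNK4 levels, and Col late lies below CCA1-34 late for LNK1, LNK3 and LNK4.

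The members varied together to different degrees. Over 12 arrays r was 0.93 for LNK1 with LNK3 (rho 0.82), 0.92 for LNK3 with LNK4 (0.88) and 0.87 for LNK1 with LNK4 (0.78). The permutation p (100000 resamples, Benjamini-Hochberg over 6 pairs) was 0.00024, 0.00024 and 0.00088 for r, and 0.00528, 0.0021 and 0.00876 for rho. Without the 2 arrays farthest from the median of the first gene named, r was 0.84, 0.91 and 0.84. LNK2 followed less closely, with r of 0.73 with LNK3 (permutation p 0.0106), 0.72 with LNK4 (0.0111) and 0.54 with LNK1 (0.0637). The rho values were 0.70 (permutation p 0.0178), 0.70 (0.0178) and 0.62 (0.0369), and r without the 2 farthest arrays was 0.69, 0.82 and 0.30.

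These correlations rest in part on the groups, since arrays share line and time. As deviations from group means, r was 0.83 for LNK1 with LNK3, 0.71 for LNK3 with LNK4 and 0.68 for LNK1 with LNK4, and the lowest exact p within groups was 0.174 after adjustment. Within groups and without the pair of early arrays these values were -0.15, 0.05 and -0.16, so the covariation within groups rested on those arrays. LNK2 gave 0.54 with LNK4 within groups and 0.56 without the pair, 0.40 and 0.29 with LNK3, and 0.07 and -0.64 with LNK1.

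The genes whose pattern over the 12 arrays was most like each member were taken as those with the highest r among 21357 single-locus probe sets, a selection that leaves no meaningful p. LNK1 was closest to AT1G72500 (r = 0.96), GI (0.92), BBX18 (0.91), UGT84A3 (0.91) and the heat shock factor gene HSFB2B (0.91). GI encodes GIGANTEA, which links the clock to flowering. Its rank correlation with LNK1 was 0.99, and without the pair of early arrays r was 0.99. LNK4 was closest to CDF3 (0.98), which encodes a cycling Dof factor, and BBX24 (0.97), a B-box light regulator. Next came PIF5 (0.94, PIL6 in the annotation), a bHLH factor that promotes elongation, AT1G30090 (0.93) and AT5G64180 (0.92). LNK3 was closest to AT1G72500 (0.95), CDF3 (0.95), AT2G16170 (0.92), AT1G13990 (0.92) and NF-YA1 (0.92).

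LNK2 had a different set, AT1G75720 (r = 0.94), AT1G33270 (0.92), AT3G42080 (0.90), AT3G45580 (0.88) and AT2G21830 (0.86), none of which was among the closest 5 of another member. For the mean of the standardised members the leading gene was again CDF3 (0.96), followed by PHT4;1 (0.94), a phosphate transporter gene, NF-YA1 (0.94), AT1G72500 (0.94), BBX24 (0.93) and AT2G21830 (0.92). AT1G13990, AT1G30090, the homeobox gene KNAT6 and AT2G16170 completed the 10, with r of 0.87 to 0.90.

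GI and CDF3 were picked for their high r with LNK1 and LNK4 over these same arrays. Their values on each array therefore illustrate that likeness and are no further evidence of it. In Col early GI was measured at 6.37, 4.33 and 7.50 and in Col late at 2.98, 3.29 and 2.92, which follows the low LNK1 value of Col early replicate 2. In CCA1-34 GI was measured at 6.40, 6.81 and 5.82 early and at 5.20, 5.89 and 6.01 late. CDF3 was measured at 5.48, 6.25 and 7.06 in Col early and at 2.98, 3.38 and 3.50 in Col late. In CCA1-34 CDF3 was measured at 5.72, 7.25 and 5.66 early and at 5.21, 5.60 and 6.49 late, with the late replicate 3 high as for LNK4.

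**Figure D4:**
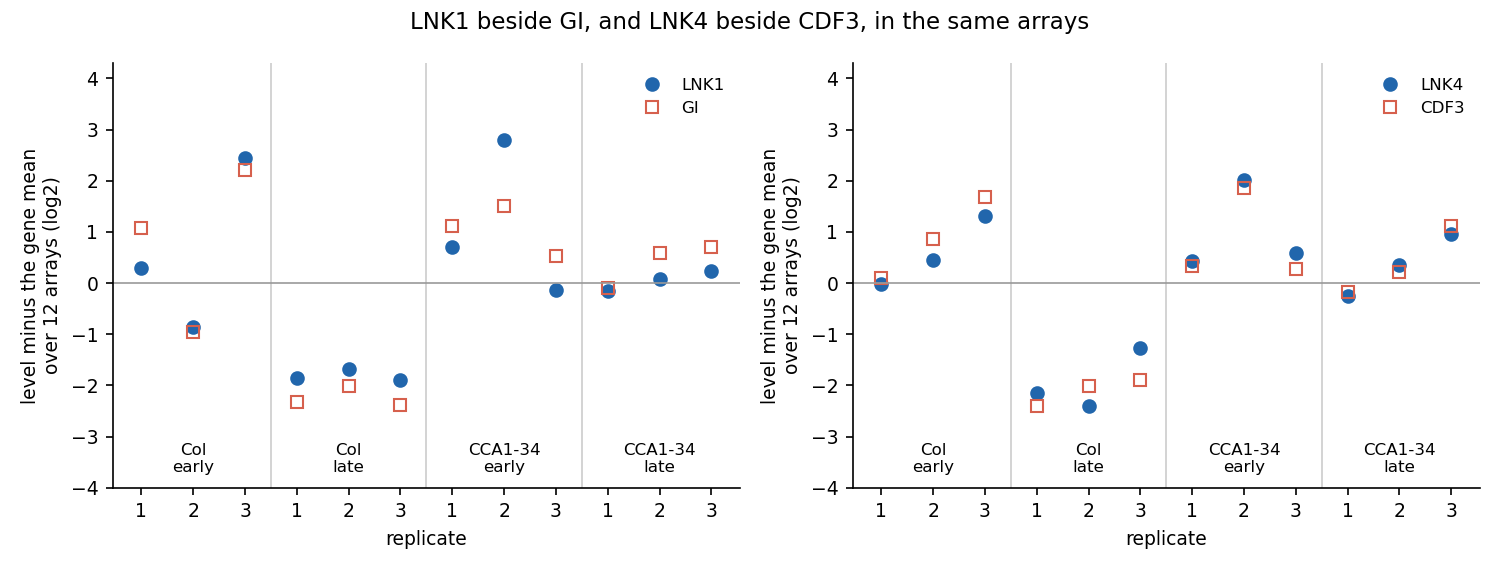
Levels of LNK1 and GI (left) and of LNK4 and CDF3 (right) on each array, as log2 level minus the gene's mean over the 12 arrays, in the order Col early, Col late, CCA1-34 early and CCA1-34 late. The genes of each pair were lowest in the 3 Col late arrays, and LNK1 and GI were both low in Col early replicate 2.

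Of the Myb factors that LNK proteins work with, 9 of 10 listed genes had a single-locus probe set. In Col early replicate 3 and CCA1-34 early replicate 2, all 9 exceeded their mean in the other arrays of the group. The average differences were 1.48 and 1.30. RVE8, the best-known LNK partner, differed by 0.03 (SE 0.75) between early and late in Col and by -0.95 (SE 0.75) between the lines at the late time. RVE4 differed by -0.61 (SE 0.37) and -0.33, and RVE6, a close relative of both, by 0.12 (SE 0.33) and 0.15. LHY, the partner of CCA1 in the morning loop, differed by -0.06 and -1.90 (SE 0.89). At the late time RVE8 ranged from 2.42 to 4.17 in Col and from 1.94 to 2.30 in CCA1-34. LHY ranged from 4.64 to 6.59 and from 3.37 to 3.70, so neither gene overlapped, whereas RVE4 and RVE6 did. Without the pair of early arrays the SE of the late difference was 0.39 for RVE8 and 0.52 for LHY (limma adjusted p = 0.881 and 0.454). In Col over time the list had 4 of 9 genes above 0 and a median of -0.06, against 0.01 for all probe sets. Without Col early replicate 3 these values moved to -0.70 for RVE8, -0.74 for RVE4, -0.29 for RVE6 and -0.77 for LHY, with 2 of 9 above 0 and a median of -0.70. The median was 0.46 without Col early replicate 1 and 0.04 without Col late replicate 1.

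RVE2, another Myb gene of this family, was highest in the group where the LNK genes were lowest. It averaged 8.04 ± 0.62 in Col late and 4.93 ± 0.85 in CCA1-34 late (SD, n = 3). At the early time it averaged 4.88 ± 1.33 in Col and 3.94 ± 0.59 in CCA1-34 (SD, n = 3). The difference was -3.15 (SE 0.64, limma adjusted p = 0.394) in Col over time, or -3.46 without the pair of early arrays, and -3.10 (0.363) between the lines at the late time, and its r with the mean of the LNK genes was -0.71. It was the 1 Myb gene below 0 at an unadjusted p under 0.05 in Col over time, against 2.74% of all probe sets. At the late time RVE1, a Myb gene that ties the clock to auxin, joined it below 0 (-1.47, SE 0.64), against 1.43% of all probe sets.

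PRR5 and TOC1 are known targets of the RVE8 and LNK complex. PRR5 differed by -0.26 (SE 0.47) in Col over time, with 1.09, -0.01 and -1.86 by day, and by -0.38 between the lines at the late time. Both signs turned without Col late replicate 3, to 0.35 and 0.23, so no direction can be given for PRR5. TOC1 differed by -0.50 (SE 0.30) in Col over time, with -0.36, -0.65 and -0.50 by day, and by -0.42 between the lines at the late time. In CCA1-34 it was measured at 5.20, 4.96 and 5.57 early and at 5.88, 5.63 and 6.15 late. Over both lines TOC1 was 0.57 lower early (limma adjusted p = 0.865, or 0.344 with the replicate block). Among the 8 measured afternoon and evening clock genes, 2 were above 0 at an unadjusted p under 0.05 in Col over time, against 2.66% of all probe sets. These were GI (3.00, SE 0.63, limma adjusted p = 0.430) and PRR7 (2.17, SE 0.53, 0.649), a pseudo-response regulator that represses CCA1, and without the pair of early arrays they gave 2.29 and 1.93. The same genes and PRR3 were higher in CCA1-34 at the late time, with 2.64 for GI, 2.56 for PRR7 and 1.01 for PRR3 (3 of 8 genes at an unadjusted p under 0.05, against 2.35% of all probe sets), and ELF4, of the evening complex, was 1.69 lower. The medians of this list were -0.24 and -0.11, against 0.01 and -0.01 for all probe sets, and the first was 0.02 without Col late replicate 3.

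LNK1 and LNK2 also act with MYB3 as corepressors of the phenylpropanoid gene C4H, and LNK proteins curb anthocyanin genes that RVE8 activates. Of the 11 measured genes of this list, 0 passed an unadjusted p of 0.05 in any comparison of line or time. In CCA1-34 all 11 were above 0 early, with a median of 0.88 against 0.00 for all probe sets, and in Col 7 were, with a median of 0.24. In CCA1-34 the median was 0.40 without early replicate 2, 0.57 without early replicate 1, 0.43 without late replicate 3 and 1.72 without early replicate 3. In Col it was -0.15 without early replicate 3, with 3 of 11 above 0, and ranged to 0.55 without early replicate 2. Leaving out 1 array also leaves the ages unequal between groups. Over seedling age 1 of the 11 genes had a slope above 0, with a median of -0.45 per day against 0.00 for all probe sets. MYB3 itself averaged between 6.08 and 6.23 in all groups.

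The LNK levels were also fitted against seedling age. The slope per day, with the group in the fit, was 0.45 for LNK4 (SE 0.17, 95% interval 0.06 to 0.83), 0.21 for LNK1, 0.14 for LNK3 and 0.12 for LNK2, all 3 with intervals that included 0. Limma's adjusted p was 0.242 for LNK4 and 0.807 to 0.831 for the others, where 0.787% of probe sets passed. At an unadjusted p under 0.05, 1 of 4 members was above 0, against 9.21% of probe sets. In CCA1-34 late and Col early, LNK4 was highest at 7 days and lowest at 5 days. In Col late it was lowest at 6 days, and in CCA1-34 early it was highest at 6 days. The 7-day array of Col early and the 6-day array of CCA1-34 early are the pair with raised light-induced genes. Without the pair of early arrays the LNK4 slope was 0.38, and those of LNK1 and LNK3 turned to -0.16 and -0.03.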

How the data were processed

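Transcript levels came from 12 Affymetrix arrays, 1 per sample. The authors deposited log2 values made with RMA, which the submitters' processing notes name without version or settings. Because RMA gives all arrays nearly equal distributions, it damps any change shared by most transcripts. The series table and the array files differed in 0 cells. From 22810 probe sets, 64 controls were removed.

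Groups and replicate numbers came from titles. Two-sided tests of differences used limma 3.58.1 (R 4.3.3; lmFit and eBayes) on all 12 arrays with 4 group means (8 residual degrees of freedom), with no filter and Benjamini-Hochberg adjustment over 22746 probe sets at 0.05. Age was a slope with the group as a factor. Single genes had exact permutation tests. The scripts were tested on simulated data. The replicate number marks the day of sampling per the labels, and so pairs arrays. Correlations of deviations between arrays of the same day ranged from -0.317 to 0.505. The fit with the replicate block changed no call of an LNK gene in limma, and CCA1 between the lines at the late time went from an adjusted p of 0.0588 to 0.0360.

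Nothing in the labels says that arrays came from separate sowings, so the p-values reflect only array-to-array spread. Within a group that spread includes seedling age and day of sampling, and part of it may be technical. Members and gene lists were chosen with earlier results of these data known. Lists were the Myb partners, afternoon and evening clock genes, MYB3 and anthocyanin genes, and as controls light-induced, dark-induced, shoot and root genes. Each gene used its probe set with the highest mean. Named genes were the members, up to 4 per biological list and comparison at an unadjusted p under 0.05, CCA1, LHY, RVE4, RVE6, RVE8, PRR5 and TOC1, and those with the highest r. PRR9 was not analysed here. LNK names come from synonyms in NCBI's TAIR10.1 annotation. Coordinates are not given, because no build is named for the arrays. Other settings were a replicate block, arrays left out, a trend in eBayes, a filter on dim probe sets, repeated quantile normalization and fewer groups in the fit; their use on the gene lists was added after seeing the data.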

Additional observations from a re-analysis of the deposited data

How the results depend on the processing

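No LNK gene passed limma in any comparison with the replicate block, with a trend in eBayes, with the filter on dim probe sets (which left out LNK3), after repeated quantile normalization, or without any 1 array, and the count stayed at 0. With the groups of the contrast alone in the fit, 2 LNK genes passed between the lines at the late time, where 0.0967% of all probe sets passed. By the exact test, 1 gene passed for the line over both times, and 0 without strata, 0 with the replicate block, 3 without Col early replicate 3 and CCA1-34 early replicate 2, and 0 to 3 without any 1 array. For the time over both lines 4 passed, 1 with the replicate block and 3 to 4 without any 1 array. Of 6 correlations 5 passed, 0 within groups, 3 without the pair of early arrays and 3 to 6 without any 1 array, the 3 being without CCA1-34 early replicate 2.

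The interaction without any 1 array ranged from 0.44 to 2.19 for LNK1, 0.18 to 1.14 for LNK2, 0.83 to 1.86 for LNK3 and 1.51 to 2.38 for LNK4. Signs turned in few places. Between the lines early, values without any 1 array ranged from -0.34 to 1.41 for LNK1, -0.66 to 0.30 for LNK2, -0.32 to 0.72 for LNK3 and -0.079 to 0.78 for LNK4. The LNK2 line difference over both times was -0.19 without the pair and -0.093 to 0.39 without any 1 array. Age slopes without the pair were -0.16 for LNK1 and -0.032 for LNK3, and without any 1 array they ranged from -0.16 to 0.54 and from -0.032 to 0.38. The cause was not tested. The files hold no detection call, so whether the low Col late values are above background was not tested.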

Other observations

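Next to LNK1 on its chromosome in the TAIR10.1 annotation lies AT5G64180, whose values ranged from 3.54 to 5.18. Its r over the 12 arrays was 0.73 with LNK1 and 0.92 with LNK4, which lies elsewhere on the same chromosome, and its gene model does not overlap that of LNK1. Within groups the r of AT5G64180 with LNK1 was 0.29. Other neighbours without overlap had r of 0.49 with LNK2 (AT3G54510), 0.58 with LNK3 (AT3G12300) and 0.64 with LNK4 (AT5G06970). The measured genes whose models do overlap an LNK gene had lower r. AT5G64160 had r of -0.50 with LNK1, AT3G54490 of 0.22 with LNK2 and AT3G12340 of -0.32 with LNK3, all described over 12 arrays that share line and time. Their values spanned narrow ranges, 3.62 to 4.31, 1.93 to 2.33 and 2.61 to 3.15 in that order. AT5G06990 beside LNK4 and a non-coding gene within LNK2 were not analysed here.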
